A study of Mus musculus with 18 samples.

Results

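The 10 genes described here encode the glucose transporter Slc2a1 (GLUT1), 8 enzymes that carry out or regulate glycolysis (Hk2, Hk3, Pfkl, Pfkp, Pfkfb3, Pgam1, Pkm and Ldha) and Hif1a, the regulated subunit of hypoxia-inducible factor 1. They were chosen by symbol from a table of 11164 mouse genes, and all 10 were listed there and passed the filter on low values. The cells were bone-marrow-derived macrophages of the strain C57BL/6J, from wild-type mice (WT), mice without the cytokine BAFF (BAFF KO) and mice without its relative APRIL (APRIL KO), and the labels of all groups give day 16 of gestation as the time point. Each genotype had 1 library without stimulation and 2 after 4 h with 10 ng/ml lipopolysaccharide (LPS), a component of the bacterial outer membrane. The labels number 2 unstimulated and 4 LPS replicates per genotype. Replicates whose names share a JD number were taken here as 1 library, which the labels do not state. WT is library 13 without LPS and 14 and 15 with it, BAFF KO is 16 without and 17 and 18 with it, and APRIL KO is 19 without and 20 and 21 with it. Nothing in the labels tells if libraries came from separate mice or cultures, so the p-values measure only the spread between libraries, which may be technical. The labels give no further detail on the knockout alleles.

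Glycolysis turns glucose into pyruvate and, through lactate dehydrogenase, into lactate. Glucose enters by facilitated transporters, is trapped by hexokinases and is committed to the pathway by phosphofructokinase, whose strongest activator is made by enzymes of the PFKFB family. Macrophages given LPS are known to raise glucose uptake and lactate release, and HIF-1, a pair of Hif1a with Arnt, is known to bind a short element in many genes of the pathway.

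Levels are given as RPKM, reads scaled to gene length and library total, averaged over the 2 columns of each library. The libraries held 5121833 to 6020780 reads in the listed genes. All 13 macrophage markers sought were listed, and their summed level was 5303 to 8147 RPKM in the 9 libraries. Lyz2, the largest part of that sum, had group means from 2978 to 5272 RPKM. Single macrophage markers went both ways between LPS-treated BAFF KO and WT. Mean levels in that order were 51.3 and 125 RPKM for Msr1, 74.7 and 141 for Fcgr1 and 104 and 198 for Cd14. For Mertk they were 51.0 and 13.9, and for Mrc1 48.9 and 38.1. The summed level of 11 neutrophil markers was 1975 to 2265 RPKM in LPS-treated BAFF KO libraries, 1164 to 1487 in WT and 1406 to 1436 in APRIL KO. S100a8 and S100a9 were the largest parts of that sum, with means of 609 and 1269 RPKM in LPS-treated BAFF KO and 402 and 742 in WT. Csf3r went the other way, with 35.4 in BAFF KO and 40.1 in WT. The summed level of 22 skeletal muscle markers was 189 to 299 RPKM in WT with LPS and 25.6 to 49 in the LPS-treated knockout libraries. These are 11 of 12 neutrophil and 22 of 24 muscle markers sought. Ckm, the muscle creatine kinase, was at the table's floor of 0.146 RPKM in all 3 BAFF KO libraries and between 1.20 and 2.83 in WT. Other muscle markers were above the floor in BAFF KO: with LPS Tnnt3 had means of 8.37 RPKM there and 55.3 in WT, and Acta1 5.26 and 40.2. Differences are on the log2(RPKM + 1) scale with Benjamini-Hochberg adjusted p-values from limma, called below 0.05. In bulk RNA, fewer cells of a type and less RNA per cell cannot be told apart.

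Promoters of 5 members are shown: Slc2a1, called between genotypes under LPS, Pfkfb3 and Hk2, with the largest rises under LPS, Pgam1, with the largest fall, and Ldha, whose window holds the most matches to the core of the HIF-1 response element. Each window runs from 250 bases before to 50 bases after the RefSeq start (build GRCm38.p6), 5′ to 3′ on the strand of the gene. Capitals mark ACGTG or GCGTG on the strand shown, or their reverse complements CACGT and CACGC. Overlapping matches form 1 run of capitals. Slc2a1 lies at chr4:119108495-119108794 (+), Hk2 at chr6:82774405-82774704 (-), Pfkfb3 at chr2:11553880-11554179 (-), Pgam1 at chr19:41911621-41911920 (+) and Ldha at chr7:46845554-46845853 (+).
Slc2a1: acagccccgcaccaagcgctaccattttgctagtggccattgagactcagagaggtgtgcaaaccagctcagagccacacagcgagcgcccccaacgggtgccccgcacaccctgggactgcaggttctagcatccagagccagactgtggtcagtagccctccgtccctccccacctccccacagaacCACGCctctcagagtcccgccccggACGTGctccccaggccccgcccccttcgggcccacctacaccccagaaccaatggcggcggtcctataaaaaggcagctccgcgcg
Hk2: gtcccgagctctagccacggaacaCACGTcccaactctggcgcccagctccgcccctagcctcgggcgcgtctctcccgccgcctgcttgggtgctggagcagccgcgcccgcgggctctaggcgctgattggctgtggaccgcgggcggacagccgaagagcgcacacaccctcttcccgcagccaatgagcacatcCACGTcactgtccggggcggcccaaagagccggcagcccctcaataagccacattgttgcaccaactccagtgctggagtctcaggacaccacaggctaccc
Pfkfb3: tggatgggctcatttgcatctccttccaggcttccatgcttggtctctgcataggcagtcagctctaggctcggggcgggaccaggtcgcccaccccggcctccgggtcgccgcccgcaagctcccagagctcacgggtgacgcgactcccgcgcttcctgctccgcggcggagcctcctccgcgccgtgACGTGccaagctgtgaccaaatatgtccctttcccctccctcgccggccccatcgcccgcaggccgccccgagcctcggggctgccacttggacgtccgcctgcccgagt
Pgam1: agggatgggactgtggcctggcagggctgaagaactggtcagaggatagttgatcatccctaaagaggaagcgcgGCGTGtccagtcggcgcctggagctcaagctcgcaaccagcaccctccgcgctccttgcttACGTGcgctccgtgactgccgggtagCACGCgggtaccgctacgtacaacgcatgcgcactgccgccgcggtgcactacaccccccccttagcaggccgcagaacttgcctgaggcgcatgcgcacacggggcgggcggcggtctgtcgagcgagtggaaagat
Ldha: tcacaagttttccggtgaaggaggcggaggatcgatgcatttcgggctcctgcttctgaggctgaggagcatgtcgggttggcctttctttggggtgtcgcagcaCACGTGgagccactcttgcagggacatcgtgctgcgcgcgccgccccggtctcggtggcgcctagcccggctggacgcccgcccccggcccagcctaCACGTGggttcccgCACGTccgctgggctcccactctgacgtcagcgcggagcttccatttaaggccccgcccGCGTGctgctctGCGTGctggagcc

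RefSeq promoters were found for 10 of the 10 genes, and all 10 had the core on either strand in at least 1 window. The same was true of 67.5% of the 8645 genes of the table with a promoter entry, and 43.8% of all 32851 promoter windows of 300 bases held it. In the Slc2a1 window the cores began 61 and 36 bases before the start, at -61 and -36, and the Pfkfb3 window shown had 1, at -60. RefSeq gives Pfkfb3 another start, whose window (chr2:11502041-11502340) had 4 matches at -122, -53, -52 and 38. Another Ldha window had matches at -59 and 41. Pkm also has 2 windows, with 0 and 2 matches. The Ldha window held 5 separate stretches of capitals and the Pgam1 window 3. Neither gene rose under LPS in the deposited values, though Ldha did after the median ratio scaling explained with the LPS response. The NF-kB consensus was found in 0 of the 10 genes, beside 6.3% of the 8645 genes of the table and 4.5% of all windows. At so low a share, 0 of 10 tells little. These matches are letters in a window and say nothing about binding.

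Without LPS the 10 genes spanned a wide range of levels per length. Pkm was highest with 304 ± 19 RPKM (SD, n = 3 libraries, 1 per genotype), followed by Ldha with 229 ± 26.8, Hk3 with 148 ± 2.15 and Pgam1 with 102 ± 5.96. The ranges of these 4 did not overlap. Hif1a (28.0 ± 7.0), Pfkp (25.2 ± 2.95), Slc2a1 (23.7 ± 2.28) and Hk2 (22.6 ± 6.92) could not be ordered, since their ranges overlapped, as did those of Hk2 and Pfkl (16.6 ± 1.48). Pfkfb3 was lowest with 13.03 ± 2.31, and its highest library, 14.4, lay below the lowest of Pfkl, 15.1.

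With LPS the order changed. Hk3 was highest with 240.5 ± 11.6 RPKM (SD, n = 6 libraries, 2 per genotype), above Ldha (189 ± 13.7) and Pkm (189 ± 11.96), whose ranges overlapped. Pfkfb3 moved from the last place to the fourth with 75.5 ± 15.9, and its range overlapped that of Pgam1 (57.4 ± 5.10). Hk2 (52.4 ± 6.01), Pfkp (47.2 ± 4.41) and Hif1a (45.5 ± 3.53) followed with overlapping neighbours. Slc2a1 (25.4 ± 8.91) and Pfkl (15.1 ± 0.74) were last, and they overlapped through the BAFF KO libraries of Slc2a1. Among all 11164 genes, Pfkfb3 went from rank 3874 to 875, Hk2 from 2532 to 1227 and Hk3 from 394 to 279, whereas Pkm went from 171 to 367 and Pgam1 from 604 to 1127.

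**Figure D1:**
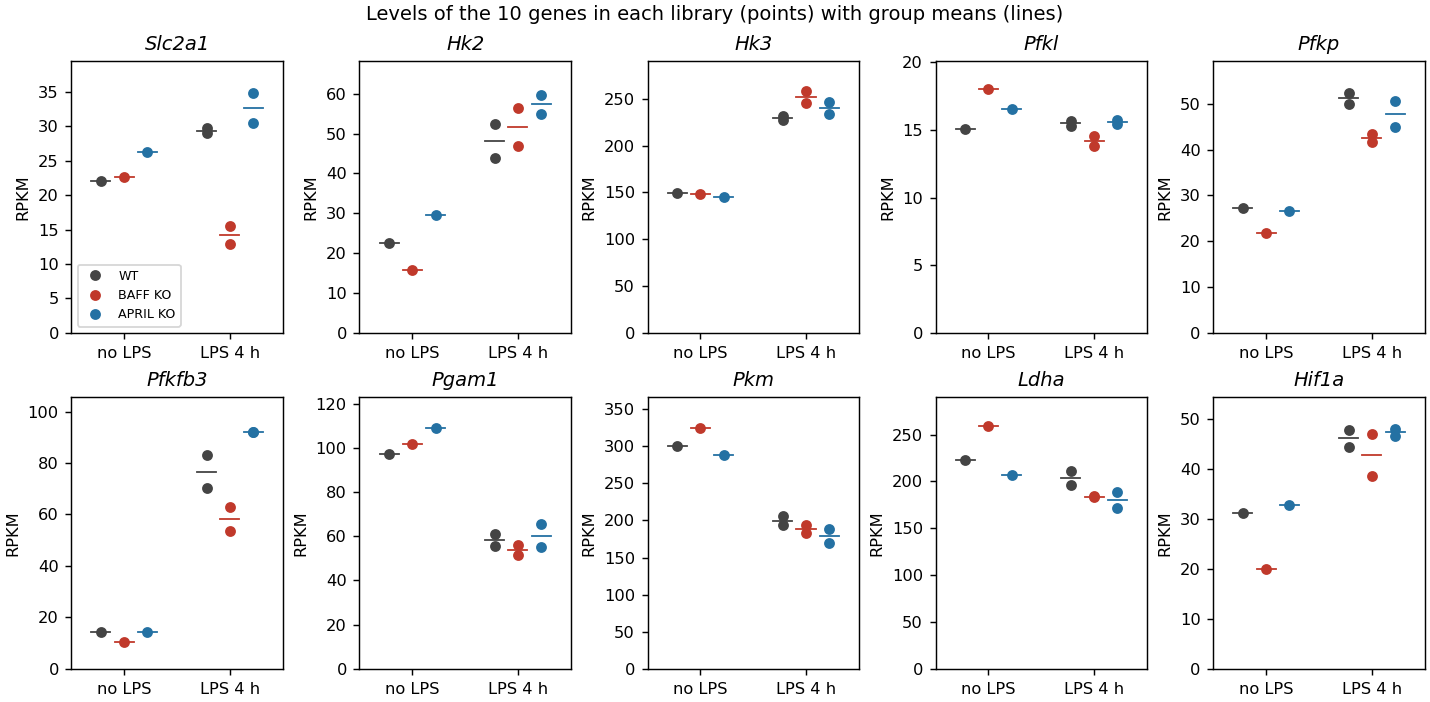
Level (RPKM, linear axis from 0) of each of the 10 genes in the 9 libraries, without LPS (left) and after 4 h with LPS (right); points are libraries, lines group means, and colours genotypes. Pfkfb3, Hk2, Hk3, Pfkp and Hif1a are higher in every LPS library than in every unstimulated one, Pgam1 and Pkm are lower, and Slc2a1 is low only in the LPS-treated BAFF KO libraries, at 12.97 and 15.6.

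The LPS response averaged over the 3 genotypes split the 10 genes. Pfkfb3, both hexokinases, Pfkp and Hif1a rose, and Pgam1, Pkm and Ldha fell, while Slc2a1 and Pfkl did not pass the test. These are the deposited values, and Ldha rose after the median ratio scaling given below. In the deposited values 5 of 10 were higher, beside 18.1% of the 9934 genes tested, and 3 of 10 lower, beside 62.1%. The members were chosen with earlier results of these data known, so these counts are a description only. The median change of the members was 0.36 and that of all tested genes -0.44. RPKM is a share of the library's reads, and what lies behind the second value was not tested. Each library was also divided by its median ratio to the genes' geometric means (median ratio scaling), which by design brings the median of all genes near 0. That median was then -0.02, and 31.0% of genes were called higher and 30.1% lower, a balance that follows from the scaling. Of the members 8 were then higher and 1, Pgam1, lower. Pfkl and Ldha changed sign under median ratio scaling, so their direction depends on it. Quantile normalization, another rescaling, left the median of all genes at -0.18, with 2418 genes called higher and 4157 lower. Under it Ldha stayed called lower. Marker sums differed with LPS as well: neutrophil markers summed to 2357 to 5008 RPKM in unstimulated and 1164 to 2265 in LPS libraries, lower with LPS in each genotype, and macrophage markers to 7429 to 8147 and 5303 to 5739. Single neutrophil markers did not all follow their sum. Over all genotypes the mean of S100a9 went from 2013 to 937 RPKM with LPS. Csf3r went from 35.4 to 40.1 in WT, 45.3 to 51.8 in APRIL KO and 48.2 to 35.4 in BAFF KO. Camp was also higher with LPS in WT and APRIL KO. Single macrophage markers went both ways with LPS: over all genotypes the mean of Csf1r went from 563 to 248 RPKM and that of Fcgr1 from 23.7 to 116. The part of these marker differences in the LPS changes was not tested.

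**Figure D2:**
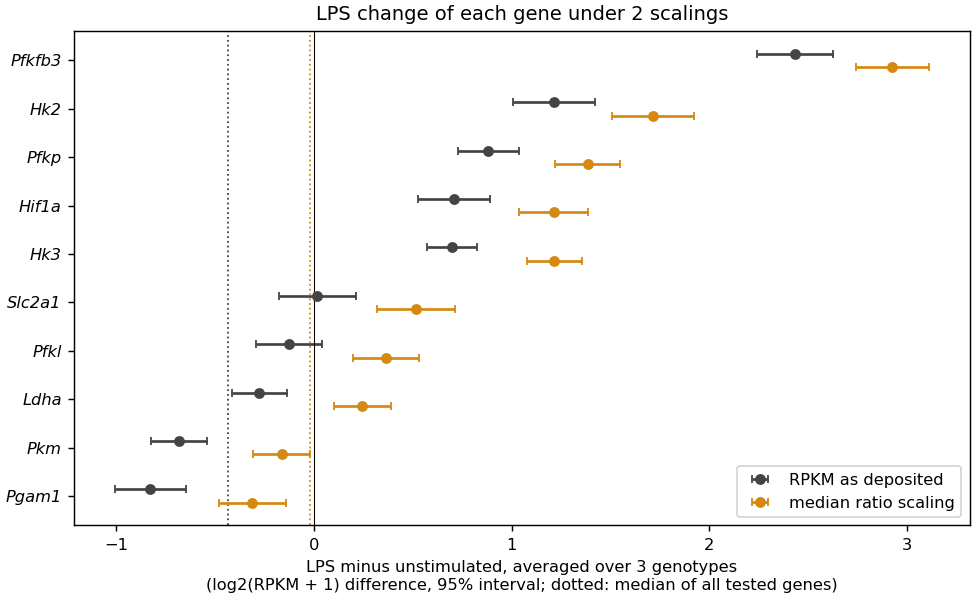
LPS minus unstimulated for each gene, averaged over the 3 genotypes, as a log2(RPKM + 1) difference with its 95% interval, for the deposited RPKM (grey) and after median ratio scaling (orange). Dotted lines give the median of all tested genes, -0.44 and -0.02. Pfkfb3 is farthest to the right at 2.43 and 2.93; Pfkl and Ldha lie on opposite sides of 0 under the 2 scalings.

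Slc2a1 (ENSMUSG00000028645; chromosome 4, 119108711 to 119137983, mm10) encodes GLUT1, the transporter that brings glucose into most cells. Without LPS its level was 22.1 RPKM in WT, 22.7 in BAFF KO and 26.3 in APRIL KO. With LPS it was 29.0 and 29.7 in WT, 12.97 and 15.6 in BAFF KO and 34.8 and 30.5 in APRIL KO. Thus both LPS-treated BAFF KO libraries lay below all 7 others, and the LPS-treated WT and APRIL KO libraries lay above the 3 unstimulated ones. Averaged over genotypes the change was 0.02 (95% interval -0.18 to 0.21; limma adjusted p = 0.86). By genotype it was 0.39 in WT (adjusted p = 0.047), -0.64 in BAFF KO (adjusted p = 0.0069) and 0.30 in APRIL KO (adjusted p = 0.11). The WT call was lost when library 14, 15, 20 or 21 was left out, with 0.41, 0.38, 0.39 and 0.39 in that order and adjusted p from 0.055 to 0.12. With median ratio scaling the 3 changes were 0.92, -0.19 and 0.82, and that in BAFF KO no longer passed. Those in WT and APRIL KO were called higher under that scaling, as was the averaged change, then 0.52. The gene rests on 63 to 374 reads per column, and 63 is the lowest count of any member.

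The share of Slc2a1 in the summed RPKM of Slc2a1, Slc2a3 and Slc2a6 does not depend on how libraries are scaled. Slc2a8 (GLUT8), also listed, at 1.30 to 1.70 RPKM without LPS and 0.54 to 1.25 with it, was not part of this sum. The share was 59.1% ± 3.11 without LPS (SD, n = 3) and 14.9% ± 5.35 with LPS (n = 6). Under LPS it was 17.9% and 17.7% in the WT libraries, 7.39% and 8.78% in BAFF KO and 19.3% and 18.5% in APRIL KO, so BAFF KO again stood below the others. The remainder was nearly all Slc2a6 (GLUT6), a transporter known from leukocytes. Slc2a6 stood at 13.4, 13.3 and 11.3 RPKM in the unstimulated WT, BAFF KO and APRIL KO libraries and between 131.7 and 160.9 in the 6 with LPS, a change of 3.41 (adjusted p = 3.2e-09). Its mean with LPS was 160.6 RPKM in BAFF KO, 134.0 in WT and 137.9 in APRIL KO. The low share in BAFF KO thus reflects higher Slc2a6 as well as the same Slc2a1 values given above. Slc2a3 (GLUT3) fell by 0.79 (adjusted p = 0.0013).

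Hk2 (ENSMUSG00000000628; chromosome 6, 82725025 to 82774454, minus strand) encodes the inducible hexokinase that can sit on mitochondria. Its unstimulated level was 22.5 RPKM in WT, 15.7 in BAFF KO and 29.5 in APRIL KO. With LPS it was 52.4 and 43.7 in WT, 47.0 and 56.4 in BAFF KO and 59.8 and 54.9 in APRIL KO. The unstimulated libraries were spread widely, and all 6 LPS libraries lay above them. Hk2 rose by 1.21 ± 0.09 (SE; adjusted p = 1e-05), by 1.06 in WT, 1.65 in BAFF KO and 0.93 in APRIL KO, each called.

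Hk3 (ENSMUSG00000025877; chromosome 13, 55005985 to 55021385, minus strand) encodes a hexokinase typical of myeloid cells. It stood at 149.5 RPKM in unstimulated WT, 148 in BAFF KO and 145 in APRIL KO. LPS libraries held 227 and 232 in WT, 258 and 245 in BAFF KO and 246 and 234 in APRIL KO. All LPS libraries lay above all unstimulated ones, and the change was 0.70 ± 0.05 (SE; adjusted p = 1.4e-05), called in each genotype with 0.61 in WT, 0.76 in BAFF KO and 0.72 in APRIL KO. Hk3 made up 72.6% ± 3.33 of the hexokinase RPKM without LPS and 71.2% ± 1.81 with it. Hk2 went from 11.01% ± 3.05 to 15.5% ± 1.504, with ranges that overlapped, and Hk1, the widely expressed hexokinase, from 16.4% ± 0.77 to 13.3% ± 0.83, with ranges that did not. Hk1 itself rose by 0.42 (adjusted p = 0.0014), so all 3 listed hexokinase genes rose.

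Pfkl (ENSMUSG00000020277; chromosome 10, 77986947 to 78010083, minus strand) and Pfkp (ENSMUSG00000021196; chromosome 13, 6579768 to 6648777, minus strand) encode the liver and platelet forms of phosphofructokinase. Pfkl was 15.1, 18.1 and 16.6 RPKM in the unstimulated WT, BAFF KO and APRIL KO libraries and between 13.8 and 15.7 in the 6 LPS libraries, with overlapping ranges. Its averaged change of -0.12 did not pass (95% interval -0.29 to 0.04; adjusted p = 0.14) and was 0.37 with median ratio scaling (adjusted p = 0.0026). Pfkp was 27.2, 21.8 and 26.6 RPKM without LPS, and with LPS 50.1 and 52.4 in WT, 43.4 and 41.7 in BAFF KO and 50.7 and 44.9 in APRIL KO. Every LPS library lay above every unstimulated one. Pfkp rose by 0.88 ± 0.07 (SE; adjusted p = 1.2e-05), by 0.89 in WT, 0.93 in BAFF KO and 0.82 in APRIL KO. Its exons share 748 bases, 5.58% of them, with Pitrm1 on the other strand, which stood at 35.3 RPKM on average, and whether the counting used strand is not known.

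Within the phosphofructokinases the share of Pfkp went from 52.2% ± 3.77 (SD, n = 3) to 70.1% ± 2.13 (n = 6) and that of Pfkl from 34.6% ± 5.09 to 22.5% ± 1.63, without overlap in either. Pfkm, the muscle form, had 13.3% ± 3.60 without LPS and 7.34% ± 2.98 with it, with overlapping ranges. Pfkm was highest in the WT libraries, at 8.82 RPKM without LPS and 8.50 and 7.08 with it. Those are also the libraries with the most skeletal muscle marker RNA, of which list Pfkm is itself one. The part of that RNA in the Pfkm values was not tested.

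Pfkfb3 (ENSMUSG00000026773; chromosome 2, 11471433 to 11554077, minus strand) encodes the inducible enzyme that makes fructose 2,6-bisphosphate, the activator of phosphofructokinase. Its unstimulated level was 14.3 RPKM in WT, 10.4 in BAFF KO and 14.4 in APRIL KO. With LPS it was 82.9 and 70.2 in WT, 53.5 and 62.9 in BAFF KO and 91.9 in both APRIL KO libraries. LPS libraries were all far above unstimulated ones, and among them the genotypes fell in the order BAFF KO, WT, APRIL KO without overlap. The change was the largest of the members, 2.43 ± 0.08 (SE; adjusted p = 1.3e-07), or 5.41-fold on the RPKM + 1 scale, with 2.34 in WT, 2.38 in BAFF KO and 2.59 in APRIL KO. It stood at the percentile 97.7 of the changes of all tested genes.

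Pfkfb3 also made up most of its family's RNA with LPS. It held 57.0% ± 3.63 of the summed RPKM of Pfkfb2, Pfkfb3 and Pfkfb4 without LPS (SD, n = 3) and 97.7% ± 0.70 with LPS (n = 6). Pfkfb4, a related enzyme, went from 7.90, 6.58 and 10.6 RPKM in unstimulated WT, BAFF KO and APRIL KO to between 1.00 and 1.67 with LPS. It fell by 1.98 (adjusted p = 5.1e-06), and Pfkfb2 fell by 0.93 (adjusted p = 5.3e-05). Both falls kept their call after median ratio scaling, at -1.56 and -0.68.

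**Figure D3:**
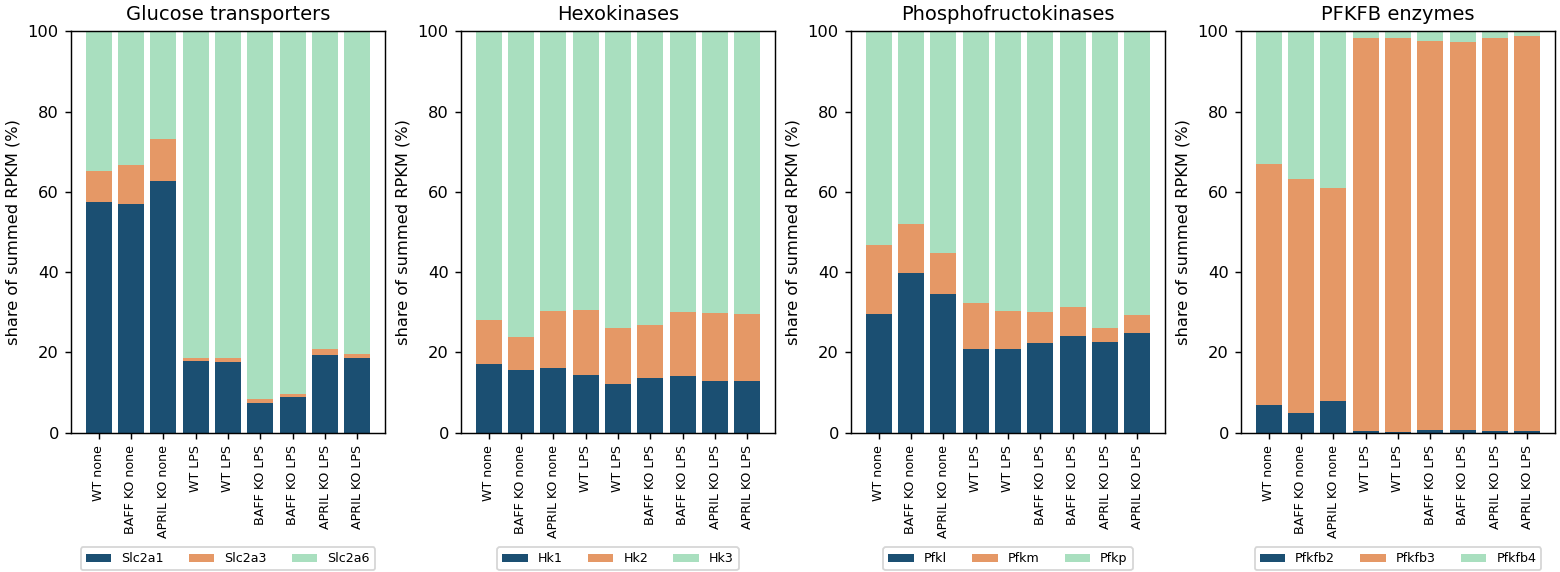
Share (%) of each isozyme in the summed RPKM of the 3 genes of a panel in each of the 9 libraries, for glucose transporters (without Slc2a8), hexokinases, phosphofructokinases and PFKFB enzymes; each bar is 1 library and sums to 100. With LPS Pfkfb3 fills its bar to 96.8% or more, Slc2a6 replaces Slc2a1 as the main transporter RNA, and the hexokinase bars change least.

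Pgam1 (ENSMUSG00000011752; chromosome 19, 41911923 to 41918660) encodes the phosphoglycerate mutase of most tissues. It stood at 97.0 RPKM in unstimulated WT, 101.5 in BAFF KO and 109 in APRIL KO, and with LPS at 55.7 and 61.1 in WT, 51.3 and 55.8 in BAFF KO and 55.0 and 65.7 in APRIL KO. All LPS libraries lay below all unstimulated ones. Pgam1 fell by 0.83 ± 0.08 (SE; adjusted p = 3.4e-05), was called in each genotype, and was the only member still lower after median ratio scaling (-0.31, adjusted p = 0.0072). The annotation names 2 pseudogenes after Pgam1 and 2 after Ldha, so reads shared with such copies make both levels uncertain.

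Pkm (ENSMUSG00000032294; chromosome 9, 59656368 to 59679375) encodes pyruvate kinase, whose M1 and M2 forms the table does not separate. It stood at 299.8 RPKM in unstimulated WT, 325 in BAFF KO and 288 in APRIL KO, and with LPS at 194 and 205 in WT, 194 and 183 in BAFF KO and 170.1 and 188 in APRIL KO. The groups did not overlap, and Pkm fell by 0.68 ± 0.06 (SE; adjusted p = 2.8e-05). With median ratio scaling the change was -0.16 (adjusted p = 0.054). Its exons share 767 bases (15.3% of them) with a gene model on the same strand.

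Ldha (ENSMUSG00000063229; chromosome 7, 46841475 to 46855627) encodes the lactate dehydrogenase subunit that favours lactate formation. It stood at 222 RPKM in unstimulated WT, 259 in BAFF KO and 207 in APRIL KO, and with LPS at 196 and 212 in WT, 184 and 183 in BAFF KO and 171 and 188 in APRIL KO. The WT library 15 reached into the unstimulated range. Ldha was called lower by the averaged test (-0.27, adjusted p = 0.0033) and higher after median ratio scaling (0.25, adjusted p = 0.0089). By genotype the fall passed only in BAFF KO (-0.49, adjusted p = 0.0048). The values were -0.13 in WT and -0.20 in APRIL KO, and both were positive after that scaling. Ldha made up 96.7% ± 0.71 of the Ldha and Ldhb RPKM without LPS and 97.8% ± 0.59 with it.

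Hif1a (ENSMUSG00000021109; chromosome 12, 73901375 to 73947530) encodes the HIF-1 subunit whose protein is destroyed when oxygen is ample, so that its RNA is only one layer of its control. Its RNA stood at 31.2 RPKM in unstimulated WT, 19.9 in BAFF KO and 32.8 in APRIL KO. With LPS it was 47.8 and 44.5 in WT, 38.7 and 47.0 in BAFF KO and 46.6 and 48.1 in APRIL KO. Under LPS the genotypes overlapped, whereas the unstimulated BAFF KO library was the lowest of all 9. Hif1a rose by 0.71 ± 0.08 (SE; adjusted p = 8.3e-05), by 0.55 in WT, 1.06 in BAFF KO and 0.52 in APRIL KO. An antisense gene covers 5.6% of its exon bases but stood at only 1.30 RPKM.

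By genotype, WT had 6 members higher and 2 lower, BAFF KO 5 and 4, and APRIL KO 5 and 2. Of all tested genes, 13.7% were higher and 46.7% lower in WT, 16.0% and 43.8% in BAFF KO, and 14.4% and 47.8% in APRIL KO. Pfkfb3, Hk2, Hk3, Pfkp and Hif1a were called higher in all 3 genotypes, also after median ratio scaling. Under that scaling 8 members were higher in WT and none lower, 5 and 1 in BAFF KO, and 8 and 0 in APRIL KO.

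Without LPS the knockouts can be set beside WT only as single libraries, with no test. In BAFF KO, Hif1a stood at 0.638 of the WT level, Hk2 at 0.698, Pfkfb3 at 0.724, Pfkp at 0.802 and Hk3 at 0.993. Pfkl stood at 1.20, Ldha at 1.17, Pkm at 1.084, Pgam1 at 1.046 and Slc2a1 at 1.026. In APRIL KO, Hk2 stood at 1.31 of the WT level, Slc2a1 at 1.19, Pgam1 at 1.12, Pfkl at 1.096, Hif1a at 1.05 and Pfkfb3 at 1.007. Ldha stood at 0.930, Pkm at 0.959, Hk3 at 0.972 and Pfkp at 0.979. The spread between unstimulated libraries is not known for any genotype, so these ratios are a description only. The unstimulated BAFF KO library also had the highest neutrophil marker sum, 5008 RPKM against 2689 in WT and 2357 in APRIL KO. Its part in these values was not tested.

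Under LPS, Slc2a1 was the only member called between BAFF KO and WT. Its level was 14.3 ± 1.84 RPKM in BAFF KO and 29.4 ± 0.51 in WT (SD, n = 2 each). The difference was -0.996 (95% interval -1.27 to -0.72; limma adjusted p = 0.0039), a 2.00-fold lower level on the RPKM + 1 scale, and only 1.6% of all tested genes had a lower value. Leaving out any 1 library gave values from -1.12 to -0.87, each called. Each column of the BAFF KO libraries, read separately, was at 12.7 to 16.1 RPKM. The other 9 members did not pass, so 1 of 10 was called, beside 8.34% of all genes in either direction and 4.35% lower. Pfkfb3 was 58.2 ± 6.64 against 76.6 ± 8.99 RPKM (-0.39, 95% interval -0.66 to -0.12; adjusted p = 0.083) and Pfkp 42.6 ± 1.18 against 51.2 ± 1.67 (-0.26, 95% interval -0.48 to -0.04; adjusted p = 0.13). Both passed in a test on recovered reads with voom weights. For the remaining 7 the differences ran from -0.15 (Ldha, 95% interval -0.34 to 0.05) to 0.13 (Hk3, 95% interval -0.05 to 0.31).

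Other RNA differed between the same libraries. The neutrophil and muscle sums are given above. The summed level of 4 of 5 B cell markers was 11.2 to 16.8 RPKM in LPS-treated BAFF KO and 23.2 to 26.5 in WT. The sums of 3 of 5 erythroid markers overlapped, at 328 to 405 in BAFF KO and 327 to 328 in WT. The 6 of 7 listed fibroblast markers summed to 9.30 to 44.2 RPKM in BAFF KO and 53.7 to 224 in WT. In the LPS-treated APRIL KO libraries these sums were 26.0 to 29.4 RPKM for B cell, 429 to 663 for erythroid and 14.8 to 433 for fibroblast markers. Their part in the Slc2a1 difference was not tested.

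APRIL KO had no member called against WT under LPS. By limma 0 of 10 passed, 0 had an unadjusted p under 0.05 and voom called 0, beside 0.211% of all genes. The largest differences were Pfkfb3 with 0.26 (95% interval -0.01 to 0.53; adjusted p = 0.33), Hk2 with 0.25 (95% interval -0.04 to 0.55) and Ldha with -0.18 (95% interval -0.38 to 0.02). Slc2a1 differed by 0.14 (95% interval -0.13 to 0.42). These intervals do not show that the genotypes are alike. Both knockouts were compared with the same 2 WT libraries.

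Compared directly, BAFF KO was lower than APRIL KO in 2 of 10 members, Slc2a1 and Pfkfb3, beside 5.54% of all genes in either direction and 3.06% lower. The difference in Slc2a1 was -1.14 (95% interval -1.42 to -0.87; adjusted p = 0.0027). That in Pfkfb3, 58.2 ± 6.64 against 91.9 ± 0.03 RPKM, was -0.66 (95% interval -0.92 to -0.39; adjusted p = 0.019). The Pfkfb3 call was lost without library 17, 18, 20 or 21, with -0.54, -0.77, -0.66 and -0.66 in that order and adjusted p from 0.054 to 0.13. The remaining 8 lay between -0.16 (Pgam1, 95% interval -0.42 to 0.09) and 0.07 (Pkm, 95% interval -0.13 to 0.28), and none passed.

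**Figure D4:**
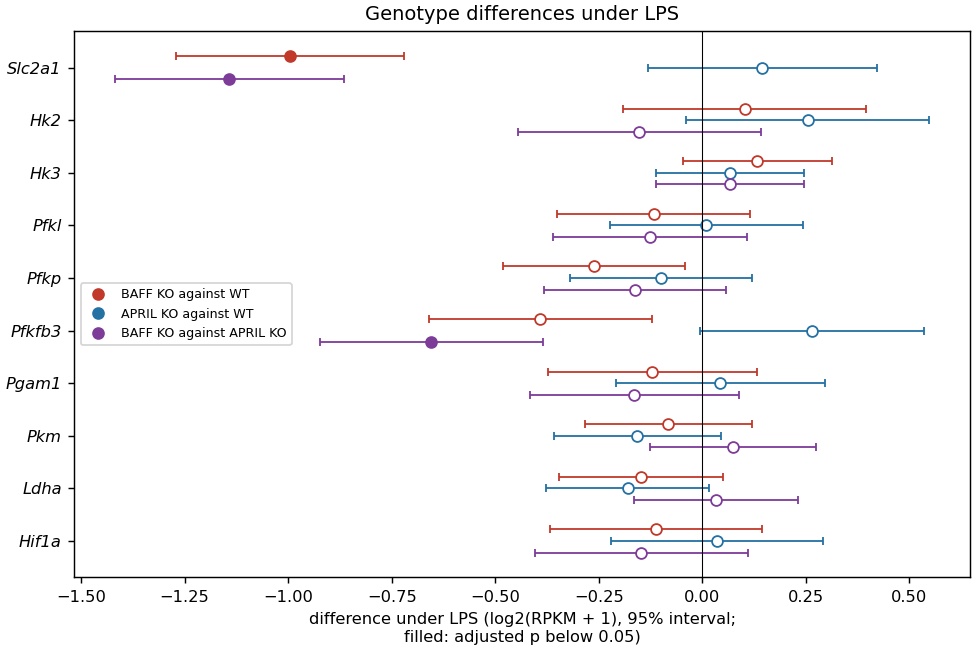
Difference between genotypes under LPS for each gene (log2(RPKM + 1), with its 95% interval); filled points have an adjusted p below 0.05. Slc2a1 is filled in both comparisons with BAFF KO, at -0.996 and -1.14, and Pfkfb3 in that of BAFF KO with APRIL KO, at -0.66; all other points are open.

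Whether the LPS response itself differed by genotype was tested as an interaction. For BAFF KO against WT 0 of 10 members passed, beside 0.443% of all genes, although 4 had an unadjusted p under 0.05. Slc2a1 had -1.03 (95% interval -1.51 to -0.55; limma adjusted p = 0.074) and was called by voom on recovered reads. Hk2 had 0.59 (adjusted p = 0.18), Hif1a 0.51 (adjusted p = 0.19) and Ldha -0.37 (adjusted p = 0.21). For Hk2 and Hif1a the unstimulated BAFF KO library was the lowest of the 3 without LPS, and under LPS the genotypes differed by 0.10 and -0.11. Each of these tests rests on 1 unstimulated library per genotype. For APRIL KO against WT 0 members passed, 0 had an unadjusted p under 0.05 and voom called 0, beside 0.0% of all genes, and the values ran from -0.12 (Hk2) to 0.26 (Pfkfb3).

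Of 14 other enzymes of the glycolytic chain tested, 11 fell and 1, Hk1, rose in the averaged LPS test, beside 62.1% and 18.1% of all tested genes, with a median of -0.46 beside -0.44 for all genes. Gpi1 (phosphoglucose isomerase) fell by 0.83 (adjusted p = 9.6e-05), Ldhb by 0.74 (adjusted p = 0.00026) and Eno3, the muscle enolase, by 0.69 (adjusted p = 0.028). Eno3 is also one of the muscle markers, whose sum was highest in WT. Its level in WT was 19.8 RPKM without LPS and 26.1 and 16.6 with it. In BAFF KO it was 9.49 without and 5.07 and 4.10 with LPS, and in APRIL KO 10.6 without and 2.38 and 6.08 with it. After median ratio scaling 4 of the 14 enzymes were higher and 2, Gpi1 and Ldhb, were lower. Among the 4 was Gapdh, which fell by 0.31 in the deposited values and had 0.21 then. Of 7 other transporters of glucose and monocarboxylates, Slc2a6 rose and 4 fell. The lactate exporter Slc16a3 had -0.12 (adjusted p = 0.33) and 0.28 after median ratio scaling, called under neither.

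Of 13 regulators that are no members, 10 fell and 1 rose, and after median ratio scaling 5 were lower and 1 higher. Of all tested genes 62.1% fell and 18.1% rose, and 30.1% were lower and 31.0% higher after scaling. The deepest falls were Pfkfb4, Txnip, which restrains glucose uptake (-1.69, adjusted p = 2e-06), and Pdk2, a kinase that inhibits pyruvate dehydrogenase (-1.41, adjusted p = 1.8e-05). Its relative Pdk3 rose by 0.60 (adjusted p = 0.00048). All 4 kept their calls after that scaling.

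Around Hif1a, 11 genes for HIF subunits and oxygen sensing were tested, of which 4 fell and 1 rose, beside 62.1% and 18.1% of all tested genes. Arnt, the partner of Hif1a, fell by 0.58 (adjusted p = 0.0011), and Egln1, the prolyl hydroxylase that marks Hif1a protein for destruction, fell by 0.83 (adjusted p = 0.00021). Cul2, a scaffold of the ubiquitin ligase that acts on it, rose by 0.64 (adjusted p = 4.1e-05). After median ratio scaling Egln1 stayed called (-0.41) and Arnt did not (-0.11). Of 30 known HIF-1 targets outside glycolysis, 6 rose and 16 fell, with 10 and 7 after median ratio scaling, where Ero1l turned from -0.29 to 0.22. Nos2, the inducible nitric oxide synthase, rose from at most 0.86 RPKM to between 308 and 533 (7.995, adjusted p = 5.9e-10), and P4ha1, a collagen prolyl hydroxylase, rose by 0.87 (adjusted p = 1.1e-05). Vegfa fell by 2.05 (adjusted p = 2.9e-06), Hmox1 by 1.11 (adjusted p = 8e-07) and Bnip3l by 1.03 (adjusted p = 4.3e-05). The counts lie near the shares of all tested genes, 18.1% higher and 62.1% lower, and 31.0% and 30.1% after scaling. These 5 were called the same way under both scalings.

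Of these lists, 3 of 14 glycolytic enzymes, 1 of 11 oxygen-sensing genes and 3 of 30 HIF-1 targets were called in BAFF KO against WT under LPS, beside 8.34% of all tested genes. The glycolytic enzymes had Eno2 higher (0.82, adjusted p = 0.030) and Eno3 (-1.97, adjusted p = 0.015) and Pfkm (-0.64, adjusted p = 0.048) lower, and the oxygen-sensing list had Cul2 higher (0.43, adjusted p = 0.026). Among HIF-1 targets Tfrc (0.91, adjusted p = 0.016), Bnip3l (0.73, adjusted p = 0.021) and Hmox1 (0.44, adjusted p = 0.012) were higher and none lower. In APRIL KO against WT only Pfkm of these lists passed (-1.27, adjusted p = 0.029), beside 0.211% of all genes. Eno3 and Pfkm belong to the muscle marker list, and that list was high in WT. The transporters and regulators had 0 calls in both comparisons.

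The tested genes most like a member across the 9 libraries are given as a description. All 9 libraries share the LPS contrast, so high correlations are common. Slc2a1 was most like Polm (Pearson r = 0.9734), Akt2 (0.9727) and Acvr1b (0.964), Pfkfb3 most like Ifi208 (0.9991), Atp10a (0.9972) and Rhbdf2 (0.9965), and Hif1a most like Cd44 (0.9759), Ttc39b (0.9749) and Bcl2l11 (0.9737). For Hk2 the nearest was Ell2 (0.9958), for Hk3 Slc25a12 (0.9977) and for Pfkp Il2rg (0.9985). No other member was among the 3 nearest genes of any member.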

How the data were processed

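RNA of 9 libraries of bone-marrow-derived macrophages was sequenced, each present as 2 columns with neighbouring index numbers. The authors deposited RPKM values (reads per gene, corrected for length and sequencing depth) for 11164 genes in 18 columns. The submitters' processing notes name STAR and the build mm10. Which counter, annotation and gene filter were used was not given in the sources used here. Per the labels' protocols 2 library kits are named, so strandedness is unclear. RPKM is relative to the total, so a rise of some genes lowers the share of the others. Symbols came from GENCODE M21 for 11084 IDs, and promoters from RefSeq (GRCm38.p6).

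Reads recovered from the RPKM steps were whole within 0.01 reads for 100.0% of genes and summed to the columns' totals in 18 of 18 columns. Columns were averaged per library. The 9934 genes with a group mean of at least 1 RPKM in a group were fitted as log2(RPKM + 1) with limma 3.58.1 in R 4.3.3 (6 group means, 3 residual degrees of freedom, variance trend, 2-sided, Benjamini-Hochberg over all tested genes). The procedure was tested on simulated data. Groups of 1 library take their spread from the 3 LPS groups. Slc16a3, Pdk1 and Egln3 sit in 2 lists each. Named genes were the 10 members, their isozymes, up to 3 largest called rises and falls per pathway list (1 gene of the HIF-1 target list is not reported here), and the 3 genes most like a member. Slc16a3, Gapdh, Ero1l, Pgm1, Ckm, Tnnt3, Acta1, S100a8, S100a9, Csf3r and Camp fall outside this rule and were named after their values were seen. The members and lists were chosen with earlier results of these data known. Alternatives were another pseudocount, no filter, median ratio scaling, quantile normalization, single columns, a replicate block, no variance trend, voom on recovered reads and leaving out each library.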

Additional observations from a re-analysis of the deposited data

How the results depend on the processing

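Over 19 alternatives, 1555 of 1610 values of single members kept their side of the threshold (some that were called under neither setting changed sign), 23 lost the call, 27 gained it and 5 changed sign with a call. The latter 5 came from median ratio scaling: Pfkl averaged (0.37) and in APRIL KO (0.43), and Ldha averaged (0.25), in WT (0.42) and in APRIL KO (0.34). That scaling called 8 members higher and 1 lower in the averaged LPS response, 0 lower in WT, 1 lower in BAFF KO, and 8 higher and 0 lower in APRIL KO. With the 18 columns as separate samples, which treats columns of a library as independent, 5 members were called in BAFF KO against WT, 2 in APRIL KO against WT and 4 in the BAFF KO interaction. Voom on recovered reads called 3 and 1 in the first and last of these. In BAFF KO against APRIL KO, 1 member was called without the variance trend, and 1 to 2 when leaving out 1 library. The cause of these differences was not tested. Leaving out library 13, 16 or 19 gave no value for comparisons that need it. Replicate numbers do not pair the libraries (correlations of deviations -0.18, -0.10 and 0.12). With the replicate block, 7 in place of 8 members were called for LPS in WT, Slc2a1 losing its call, and no other count of members changed. The Slc2a1 difference between BAFF KO and WT under LPS was called under every alternative run, from -1.12 to -0.87. Depth limits Slc2a1 most, with 63 reads in its lowest column.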

Other observations

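In the averaged LPS test 62.1% of all tested genes were called lower and 18.1% higher, and 30.1% and 31.0% after median ratio scaling. Of 7 genes of the pentose phosphate pathway, which makes NADPH and ribose from glucose 6-phosphate, 6 fell and 1 rose, and after median ratio scaling 4 were lower and 1 higher. Taldo1 (transaldolase) fell by 1.15 (limma adjusted p = 2.3e-06), G6pdx, the entry enzyme, by 0.93 (adjusted p = 5.4e-06) and Pgls by 0.85 (adjusted p = 4.2e-05), while Rpe rose by 0.38 (adjusted p = 0.0040). Averaged over genotypes, all 9 tested genes of gluconeogenesis and glycogen turnover fell. Of these, 4 also fell after median ratio scaling, where Gbe1 (0.17) and Pgm1 (0.21) had positive values and no call. Single genotypes differed from the average: Gbe1 went from 9.86 RPKM to a mean of 10.96 with LPS in BAFF KO, and Pgm1 from 10.08 to 10.16 in WT. Pck2, a mitochondrial enzyme that makes phosphoenolpyruvate, fell by 2.19 (adjusted p = 3.6e-06), Pygl, a glycogen phosphorylase, by 1.60 (adjusted p = 1.8e-06) and Gys1, a glycogen synthase, by 1.03 (adjusted p = 5.8e-05).

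Under LPS, 8.34% of all genes were called between BAFF KO and WT. BAFF KO had higher levels of Pgd (0.46, adjusted p = 0.045) and G6pdx (0.44, adjusted p = 0.022) in the first of these lists, and of the glycogen branching enzyme Gbe1 (0.86, adjusted p = 0.0099) and Pygl (0.50, adjusted p = 0.047) in the second. After median ratio scaling 1 gene of the first list and 2 of the second were called higher. In the single libraries without LPS, Pgd was 121 RPKM in BAFF KO and 80.5 in WT, Pygl 80.3 and 52.1, and G6pdx 66.6 and 71.8. Gbe1 stood at 11.7 and 10.2 RPKM in BAFF KO, 5.41 and 5.75 in WT and 5.58 and 6.17 in APRIL KO. Its single libraries without LPS stood at 9.86, 7.55 and 9.67 in that order. The neutrophil marker sum was also higher in the LPS-treated BAFF KO libraries, and its part in the values was not tested. APRIL KO had 0 calls against WT in either list.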
